A study of Homo sapiens with 6 samples.

Results

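The 10 genes described here bring iron into a cell, store it, move it between compartments or release it, and they were followed in K562 cells. They are TFRC, STEAP3, SLC11A2, FTH1, FTL, NCOA4, HMOX1, SLC40A1, IREB2 and ACO1. They were found by their NCBI Gene identifiers, and all 10 were listed among the 25702 identifiers of the count tables. K562 is an established erythroid and myeloid leukaemia line derived from chronic myeloid leukaemia. The cells had been transfected by nucleofection with a pCMV-HA expression plasmid, in which the cytomegalovirus promoter drives the insert, and the insert was absent (empty vector, EV), full-length MXD3 or STIM1::MXD3, a fusion of both genes. There were 3 groups with 2 libraries each, by the study's account from separate transfections, and the labels give no further treatment. MXD3 is a basic helix-loop-helix protein that pairs with MAX and opposes MYC, and STIM1 is the calcium sensor of the endoplasmic reticulum. The comparisons asked how the native protein and the fusion each changed the transcripts of the transfected line, and how they differed from each other. Transfection was transient, all libraries came from 1 cell line, and whether plasmid-bearing cells were sorted before RNA extraction was not given in the sources used here. In bulk RNA, a change in a fraction of the cells and a smaller change in every cell cannot be told apart.

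Most cells take up iron bound to transferrin through the transferrin receptor TFRC. In the endosome STEAP3 reduces the iron and SLC11A2 (DMT1) carries it to the cytosol, where it is used, stored in ferritin shells of FTH1 and FTL chains, or exported by ferroportin, SLC40A1. NCOA4 delivers ferritin to the lysosome so that stored iron is freed, and HMOX1 opens the haem ring and so releases haem iron. The iron regulatory proteins encoded by ACO1 and IREB2 bind iron-responsive elements, short RNA hairpins, when iron is scarce. Binding in a 5′ UTR blocks translation, and binding in the 3′ UTR of TFRC stabilises the mRNA. Developing red cells take up large amounts of iron for haem, and K562 has long been used to study this system.

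Because the elements decide which of these mRNAs the regulatory proteins bind, they were searched for on the sense strand of the annotated GRCh37 (hg19) transcripts, as a C, 5 bases, the loop CAGTGN and 5 bases that pair with the first 5, with G-U pairs allowed. The canonical transcript of TFRC held 4, all in its 3′ UTR, and those of FTH1, FTL and SLC40A1 held 1 each, all in the 5′ UTR. None matched these letters in the other 6 members. The search allowed no bulge or mismatch among the 5 pairs, so elements of another shape would be missed. The numbers given are of matches, and no match does not show that an mRNA lacks an element. Of 19528 canonical coding transcripts, 139 (0.712%) held such a match in a UTR, and TFRC alone had at least 3. The TFRC elements are shown in their order along the mRNA beside those of FTL and SLC40A1, with the loop in capitals and DNA letters for RNA.
TFRC, first element, chr3:195777850-195777878, minus strand: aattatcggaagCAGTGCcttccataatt
TFRC, next element, chr3:195777446-195777474, minus strand: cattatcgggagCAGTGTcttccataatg
TFRC, next element, chr3:195777381-195777409, minus strand: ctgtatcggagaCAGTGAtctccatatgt
TFRC, last element, chr3:195777334-195777362, minus strand: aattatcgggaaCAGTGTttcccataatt
FTL, chr19:49468592-49468620, plus strand: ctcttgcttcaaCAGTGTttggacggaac
SLC40A1, chr2:190445387-190445415, minus strand: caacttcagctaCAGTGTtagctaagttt
The TFRC elements were found in 10 of its 11 annotated coding transcripts. The SLC40A1 element was found in 1 of 5, so the counts, which are summed over a gene, do not say how many of its transcripts carried it.

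The plasmids were seen in the counts. MXD3 lay at 9.33 and 11.7 CPM (the count scaled to library size) in the EV libraries, at 2524 and 2162 in the MXD3 libraries and at 1975 and 1849 in the STIM1::MXD3 libraries. STIM1 lay between 159 and 205 CPM in the EV and MXD3 libraries and at 471 and 453 CPM with the fusion. The edgeR test used below did not call STIM1 with the fusion. Its log2 fold change was 1.28 against EV and 1.42 against MXD3 (adjusted p = 0.359 and 0.381, edgeR). A difference of this size can thus go uncalled by that test. Totals were 53048343 to 63835779 counts per library. All 12 K562 markers checked, among them the globin HBE1 and the factor GATA1, were above 1 CPM in every library and summed to 6233 to 8555 CPM. Of 12 markers of other cell types 6 reached 1 CPM in every library, and the whole list summed to 271 to 402 CPM, most of it from the keratin KRT19 and the adhesion protein EPCAM, while the B-cell marker MS4A1 had no count.

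Ferritin mRNA dominated the group. Per kilobase of the canonical transcript, FTH1 had a mean of 3741 ± 733 CPM (SD, n = 6 libraries) and FTL 3701 ± 699 CPM. TFRC followed at 251 ± 36.0 CPM per kilobase and the ferritin receptor NCOA4 at 181 ± 43.2. On the same scale SLC40A1 had 18.7 ± 1.55, IREB2 18.1 ± 0.843, SLC11A2 16.4 ± 0.624, STEAP3 8.86 ± 0.692 and ACO1 7.96 ± 0.955. The ranges over libraries of FTH1 and FTL overlapped, as did those of TFRC and NCOA4, of SLC40A1, IREB2 and SLC11A2 as neighbours, and of STEAP3 and ACO1. Between these sets the ranges were separate, so the order of the sets, but not the order within them, exceeded the spread between libraries. When the length of all annotated exons was used instead, FTL moved above FTH1, NCOA4 above TFRC, and SLC11A2 fell from rank 7 to rank 9 of the 10.

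**Figure D1:**
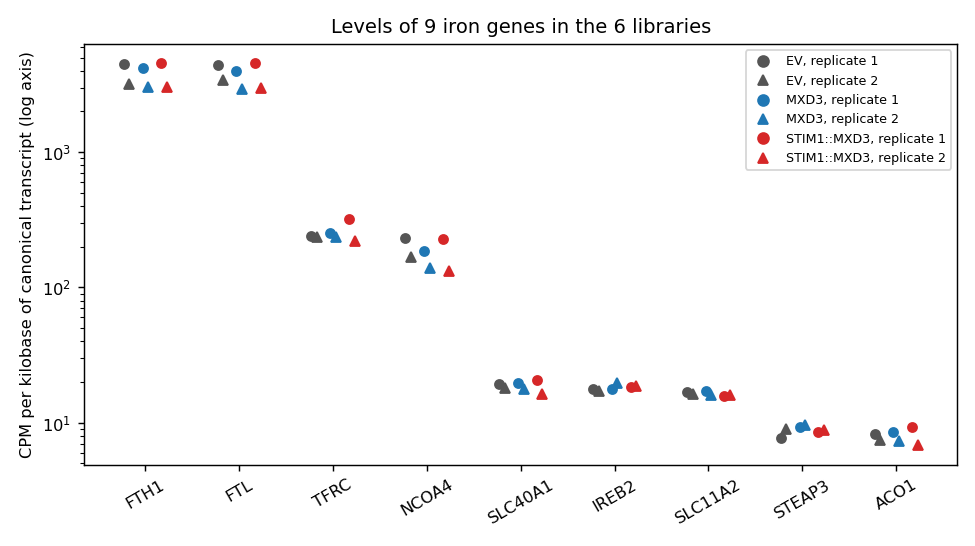
Level of 9 of the members, in TMM-scaled CPM per kilobase of canonical transcript on a log axis, in each of the 6 libraries (colour, plasmid; circle, replicate 1; triangle, replicate 2). FTH1 and FTL have means of 3741 and 3701, TFRC and NCOA4 of 251 and 181, and the other 5 of 18.7 or less; HMOX1, with at most 2 counts in a library, is not drawn.

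HMOX1, the inducible haem oxygenase, was close to absent. It had 1 count and no count in the EV libraries, 2 counts in each MXD3 library and none in the STIM1::MXD3 libraries. All of these lie below the 3 counts that a count of 0 allows, equal to 0.0467 to 0.0589 CPM by library, so no fold is given and HMOX1 did not pass the low-count filter. Its constitutive relative HMOX2 lay between 25.2 and 39.3 CPM. BACH1, the haem-binding repressor of HMOX1, lay between 123 and 214 CPM.

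FTH1 and FTL together took 0.638% to 0.904% of all counts. FTH1 was between rank 3 and rank 10 of all genes in a library and FTL between rank 6 and rank 15. Per length of the canonical transcript, the heavy-chain to light-chain mRNA ratio stayed between 0.936 and 1.06, a narrow range beside that of either chain. The level of the ratio depends on the length used. Per kilobase of all annotated exons the means were 2246 CPM for FTH1 and 3701 CPM for FTL. Reads of ferritin pseudogenes can be assigned to the parent gene or the reverse. The pseudogenes listed had few counts, FTH1P3 with 2 to 35 and FTLP10 with 0 to 2. Pseudogene reads counted under a parent gene would not appear there, so their share of the ferritin counts is not known.

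None of the 9 members that passed the filter changed between plasmids by the quasi-likelihood test of edgeR with Benjamini-Hochberg adjustment over all 15431 genes tested. With STIM1::MXD3 against EV, 0 of 9 members were called, and 0.00648% of all genes were. With MXD3 against EV the numbers were again 0 of 9 and 0.00648%. With STIM1::MXD3 against MXD3 they were 0 of 9 and 0%. No member reached an unadjusted p under 0.05 in any of the 3, where 0.953%, 1.86% and 1.01% of all genes did, and DESeq2 also called 0 of 9, where it called 0.0194%, 0.0194% and 0.00648% of all genes. The median log2 fold change of the 9 was -0.01, -0.00 and 0.03 in the same order, against 0.01, 0.00 and 0.01 over all genes. Both comparisons with EV use the same 2 EV libraries. These data do not show equality. The 95% confidence intervals of the members reached from -0.84 to 0.63 on the log2 scale with STIM1::MXD3 against EV, from -0.99 to 0.54 with MXD3 against EV and from -0.55 to 0.86 with STIM1::MXD3 against MXD3, so changes of NCOA4 approaching 2-fold lay within its interval. These intervals do not use the replicate number. With the number as a block, SEs of the members were 0.07 to 0.11 in place of 0.12 to 0.30, and 2 of 9 members, NCOA4 and FTL, had an unadjusted p under 0.05 with MXD3 against EV (adjusted p = 0.187 and 0.320, edgeR), where 13.9% of all genes did.

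**Figure D2:**
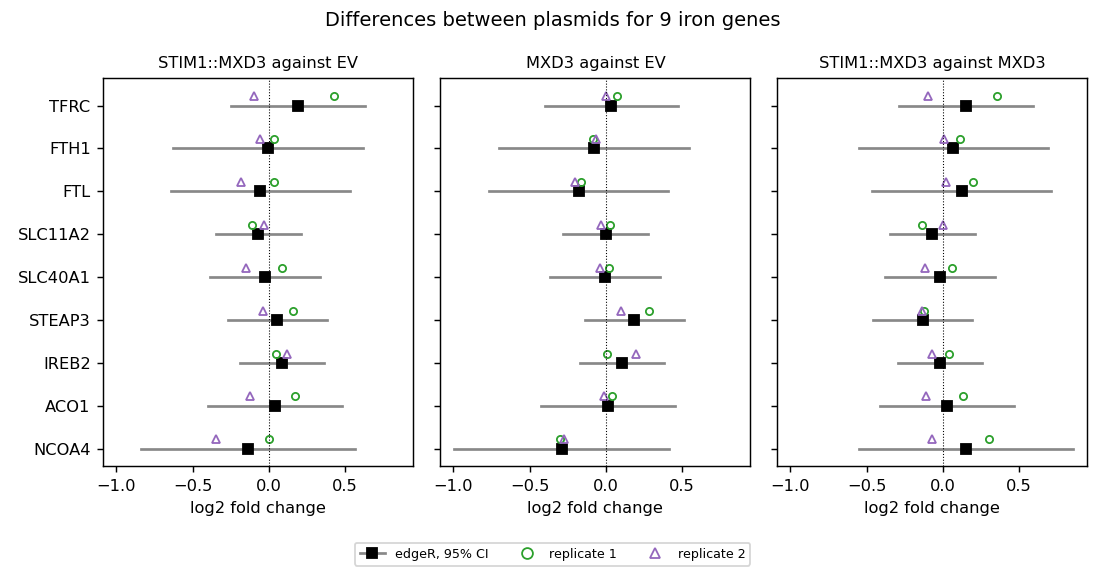
Log2 fold change of 9 members in each of the 3 comparisons; squares and lines, the edgeR estimate with its 95% confidence interval; open circles and triangles, the log2 CPM difference between the libraries numbered 1 and between those numbered 2. Every interval spans 0, and intervals are widest for NCOA4, FTH1 and FTL.

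Of the uptake genes, TFRC showed the largest estimate with the fusion and also the least agreement between libraries. It lay at 1198 and 1183 CPM with EV, at 1260 and 1182 CPM with MXD3 and at 1611 and 1105 CPM with STIM1::MXD3. The fusion group thus held both the highest and the lowest library of the 6. STIM1::MXD3 against EV gave a log2 fold change of 0.19 ± 0.18 (SE; 95% interval -0.25 to 0.63; adjusted p = 1.00, edgeR), and the value turned to -0.11 when the first fusion library was left out and was 0.43 when the second was. MXD3 against EV gave 0.04 ± 0.18 (interval -0.40 to 0.47). In STIM1::MXD3 against MXD3 the value was 0.15 ± 0.18 (interval -0.28 to 0.59), and -0.15 without the first fusion library.

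STEAP3, the endosomal reductase, lay at 32.8 and 38.5 CPM with EV, at 39.9 and 41.2 CPM with MXD3 and at 36.6 and 37.5 CPM with the fusion. Both MXD3 libraries were above the other 4. The log2 fold change against EV was 0.19 ± 0.14 (interval -0.14 to 0.51) with MXD3 and 0.06 ± 0.14 (interval -0.27 to 0.38) with STIM1::MXD3, and the fusion against MXD3 gave -0.13 ± 0.14. SLC11A2, the endosomal iron transporter, varied little. Its levels were 70.0 and 67.4 CPM with EV, 71.4 and 65.8 CPM with MXD3 and 64.9 and 65.9 CPM with the fusion. Both fusion libraries were below both EV libraries, with a log2 fold change of -0.07 ± 0.12 (interval -0.35 to 0.21), while MXD3 overlapped EV at -0.00 ± 0.12.

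The storage genes differed more between replicate numbers than between plasmids. FTH1 lay at 5357 and 3816 CPM with EV, at 5054 and 3646 CPM with MXD3 and at 5472 and 3660 CPM with STIM1::MXD3, where the first value of each pair is the library numbered 1. All 3 libraries numbered 1 were above all 3 numbered 2, whichever the plasmid. Group means were 4586 ± 1089 (SD, n = 2), 4350 ± 996 and 4566 ± 1281 CPM in the same order, and the log2 fold changes were -0.01 ± 0.26 for the fusion against EV, -0.08 ± 0.26 for MXD3 against EV and 0.07 ± 0.26 for the fusion against MXD3. FTL followed the same order of libraries, with 3845 and 2950 CPM with EV, 3441 and 2561 CPM with MXD3 and 3942 and 2600 CPM with the fusion. Its log2 fold changes were -0.05 ± 0.25, -0.18 ± 0.25 and 0.12 ± 0.25.

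NCOA4, which hands ferritin to autophagy, lay at 797 and 578 CPM with EV, at 646 and 478 CPM with MXD3 and at 796 and 455 CPM with STIM1::MXD3. Within each number the MXD3 library was below the EV library, by 0.30 log2 CPM in the first and 0.27 in the second, but the groups overlapped. MXD3 against EV gave the largest estimate among the members, -0.29 ± 0.30 (interval -0.99 to 0.41; adjusted p = 0.999, edgeR). It was -0.04 without the first EV library and -0.10 without the second MXD3 library, and -0.50 and -0.51 without the second EV and the first MXD3 library. A fit with the replicate number as a block gave the same change with an SE of 0.10 and an adjusted p of 0.187 (edgeR). With that block 0 of 9 members were called in each comparison, where 0.0194%, 0.292% and 0.00648% of all genes were, in the order of comparisons used above. For the fusion against EV the value was -0.14 ± 0.30, with -0.00 log2 CPM in the first pair and -0.34 in the second. Per length, the NCOA4 to FTH1 ratio was 0.0432 to 0.0526 over the libraries. It was 0.0517 and 0.0526 with EV, 0.0444 and 0.0456 with MXD3 and 0.0505 and 0.0432 with the fusion, so the 2 MXD3 libraries were below the 2 EV libraries here. The FTH1 to FTL ratio did not overlap either, at 1.01 and 0.936 with EV and 1.06 and 1.03 with MXD3. The TFRC to FTH1 and IREB2 to ACO1 ratios overlapped. In CPM, 31% of all genes did not overlap in this comparison, and the share among ratios of other genes was not measured.

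SLC40A1, the only known iron exporter, lay at 64.8 and 60.6 CPM with EV, at 65.8 and 59.1 CPM with MXD3 and at 68.7 and 54.6 CPM with the fusion. The fusion libraries again held the extremes, and the log2 fold changes were -0.02 ± 0.15 for the fusion and -0.01 ± 0.15 for MXD3, both against EV. Of the regulatory proteins, IREB2 (IRP2) lay at 112 and 108 CPM with EV, at 113 and 123 CPM with MXD3 and at 116 and 117 CPM with the fusion. The libraries of both other plasmids were thus all above the EV libraries, with log2 fold changes of 0.10 ± 0.12 (interval -0.17 to 0.38) for MXD3 and 0.08 ± 0.12 (interval -0.19 to 0.36) for the fusion. ACO1 (IRP1, also the cytosolic aconitase) lay at 61.8 and 55.0 CPM, 63.6 and 54.5 CPM, and 69.8 and 50.5 CPM in the same order of groups, and its log2 fold changes were 0.04 or smaller in all 3 comparisons. Per length, the IREB2 to ACO1 ratio was 1.95 to 2.73.

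Members whose groups did not overlap made up a share near that of all genes or below it. With STIM1::MXD3 against EV, IREB2 was above and SLC11A2 below, 2 of 9 members, where 22% of all genes did not overlap. With MXD3 against EV, STEAP3 and IREB2 were above, again 2 of 9, where 31% did not overlap. In STIM1::MXD3 against MXD3, STEAP3 was below, 1 of 9, where 21.1% did not overlap.

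The largest differences among the storage genes lay between replicate numbers, not between plasmids. The difference was read after the data had been seen, as the replicate coefficient of the edgeR fit with the block, and 4 of 9 members were called, all lower in the libraries numbered 2, where 29.2% of all genes were called and 16.1% were called lower. NCOA4 fell by 0.57 on the log2 scale (SE 0.08, adjusted p = 9.53e-05), FTH1 by 0.51 (SE 0.06, adjusted p = 2.70e-05), FTL by 0.47 (SE 0.06, adjusted p = 9.69e-05) and ACO1 by 0.29 (SE 0.08, adjusted p = 0.0148), all by edgeR. ACO1 was no longer called when either fusion library was left out (adjusted p = 0.137 and 0.160, edgeR). TFRC gave -0.22 ± 0.09 (adjusted p = 0.0715), and that value came mostly from the fusion pair, which differed by -0.54 log2 CPM against -0.02 for EV and -0.09 for MXD3. Without a fusion library TFRC was at -0.06 or -0.04, and without an EV or MXD3 library it was called, with values from -0.32 to -0.27.

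In all 3 groups, 6 of 9 members were lower in the library numbered 2 (TFRC, FTH1, FTL, SLC40A1, ACO1 and NCOA4), where 30.2% of all genes were. STEAP3 was higher in all 3, as 28.6% of all genes were. For FTH1 the differences were -0.49 with EV, -0.47 with MXD3 and -0.58 with the fusion, and for NCOA4 they were -0.46, -0.43 and -0.81. The TFRC to FTH1 ratio was -2.16, -2.00 and -1.76 on the log2 CPM scale in the libraries numbered 1 and -1.69, -1.63 and -1.73 in those numbered 2. The ratio was thus higher in the library numbered 2 with every plasmid, by the least with the fusion, where TFRC was lower too. The K562 identity list moved with the replicate number as well, with 9 of its 12 genes called lower and 1 higher, and its summed level was 7877 to 8555 CPM in the libraries numbered 1 and 6233 to 7026 CPM in those numbered 2. Of the 8 tested markers of other cell types 2 were called lower and 0 higher, KRT19 at -0.44 ± 0.07 and EPCAM at -0.23 ± 0.07 (adjusted p = 2.41e-04 and 0.0253, edgeR), and the list of 12 summed to 402, 322 and 394 CPM in the libraries numbered 1 and to 322, 271 and 289 CPM in those numbered 2. The part of either list in the result was not tested. The labels do not say what the replicate number stands for.

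**Figure D3:**
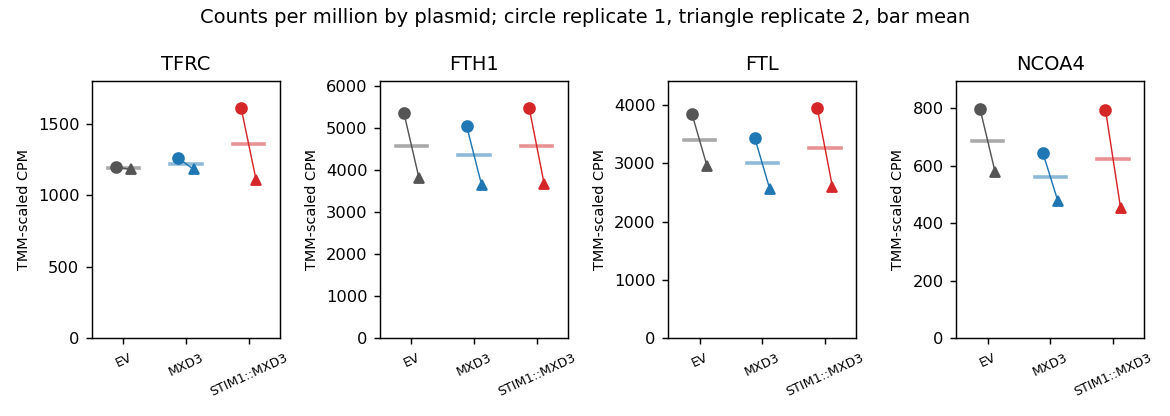
TMM-scaled CPM of TFRC, FTH1, FTL and NCOA4 in the 6 libraries, by plasmid, on axes that start at 0; circles are replicate 1, triangles replicate 2 and horizontal bars the mean of 2. For FTH1, FTL and NCOA4 replicate 2 is below replicate 1 with every plasmid, and for TFRC the pair is far apart only with STIM1::MXD3 (1611 and 1105 CPM).

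Another 97 genes of iron handling, in 8 lists written from general knowledge, were read from the same test, with 87 tested and 0 called in each comparison. With MXD3 against EV, 32 were higher and 55 lower, with a median log2 fold change of -0.06. With STIM1::MXD3 against EV, 41 were higher and 46 lower (median -0.00), and with STIM1::MXD3 against MXD3, 55 were higher and 32 lower (median 0.06). Those with an unadjusted p under 0.05 (edgeR) numbered 1, 0 and 1 of 87 in the same order, where the share of all genes was 1.86%, 0.953% and 1.01%. With the replicate block they numbered 14, 7 and 9, where the share of all genes was 13.9%, 8.5% and 6.49%, and none was called. Without the block they were LCN2, the siderophore-binding lipocalin, at 0.314 and 0.413 CPM with EV and 0.0623 and 0.0534 CPM with MXD3, and LYRM4, a partner of the cysteine desulphurase of iron-sulphur assembly, at 44.6 and 41.4 CPM with MXD3 and 57.9 and 50.5 CPM with the fusion.

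Next to the members, the erythroid receptor TFR2 was well expressed, at 260 to 311 CPM, and so was the mitochondrial iron importer SLC25A37 at 223 to 377 CPM. Neither was called in a plasmid comparison. The iron chaperone PCBP1, which loads ferritin, was likewise higher in the libraries numbered 1, with 1050, 869 and 1015 CPM there and 810, 663 and 638 CPM in those numbered 2 (replicate coefficient -0.48 ± 0.07, adjusted p = 2.34e-04, edgeR). FBXL5, the iron-sensing ligase subunit that removes IRP2, lay at 32.2 to 42.3 CPM. The replicate coefficient was -0.44 ± 0.07 for SLC25A37, -0.27 ± 0.08 for FBXL5 and -0.12 ± 0.06 for TFR2 (adjusted p = 4.48e-04, 0.0208 and 0.186, edgeR). TFR2, SLC25A37, PCBP1 and FBXL5 were named after their values were seen. Genes called lower and higher in the libraries numbered 2 were 6 and 1 of 12 in the transferrin cycle list. For iron export they were 2 and 1 of 6, for chaperones and turnover 3 and 0 of 9. For other reported elements they were 4 and 0 of 5, for mitochondrial assembly 4 and 1 of 20. For cytosolic assembly they were 2 and 1 of 10, for haem 1 and 2 of 8, for NRF2 and BACH1 6 and 1 of 17. Of all genes, 16.1% were called lower and 13.1% higher.

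Within the lists, the gene with the smallest p in each comparison gives the size of what was measured. Among other mRNAs with a reported element, EPAS1, the hypoxia factor HIF-2 alpha, gave -0.41 ± 0.30 with MXD3 against EV and lay at 128 and 83.0 CPM with EV and 94.0 and 64.9 CPM with MXD3. In the same comparison SQSTM1, an autophagy receptor and NRF2 target, gave -0.28 ± 0.13, and both MXD3 libraries (440 and 422 CPM) were below both EV libraries (548 and 496 CPM). Both were called by DESeq2 with the replicate block (adjusted p = 0.00494 and 0.0454) and by no other setting tried. With MXD3 against EV that fit called 2.42% of the 10046 genes it gave an adjusted p. LRP1, the receptor that takes up haem bound to haemopexin, gave -0.55 ± 0.31 with MXD3 and -0.47 ± 0.31 with the fusion, both against EV. HFE, the haemochromatosis protein that binds the transferrin receptor, gave -0.77 ± 0.40 at under 2.1 CPM. With the fusion against EV the other leaders were HJV at -0.34 ± 0.21, MAFK at -0.27 ± 0.18, PCBP4 at -0.25 ± 0.19, LYRM4 at 0.17 ± 0.13, SLC39A14 at 0.16 ± 0.12, CIAO2A at 0.15 ± 0.13 and EPAS1 at -0.21 ± 0.30. In the fusion against MXD3 they were LCN2 at 1.60 ± 0.75, LYRM4 at 0.33 ± 0.13, RBX1 at 0.29 ± 0.14, CIAO2B at 0.20 ± 0.12, ALAS2 at 0.20 ± 0.18, NFE2L2 at 0.19 ± 0.16, SLC39A8 at 0.18 ± 0.12 and BLVRA at 0.15 ± 0.12. With MXD3 against EV, CUL1 stood at 0.19 ± 0.11 and CIAO2B at -0.16 ± 0.12.

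**Figure D4:**
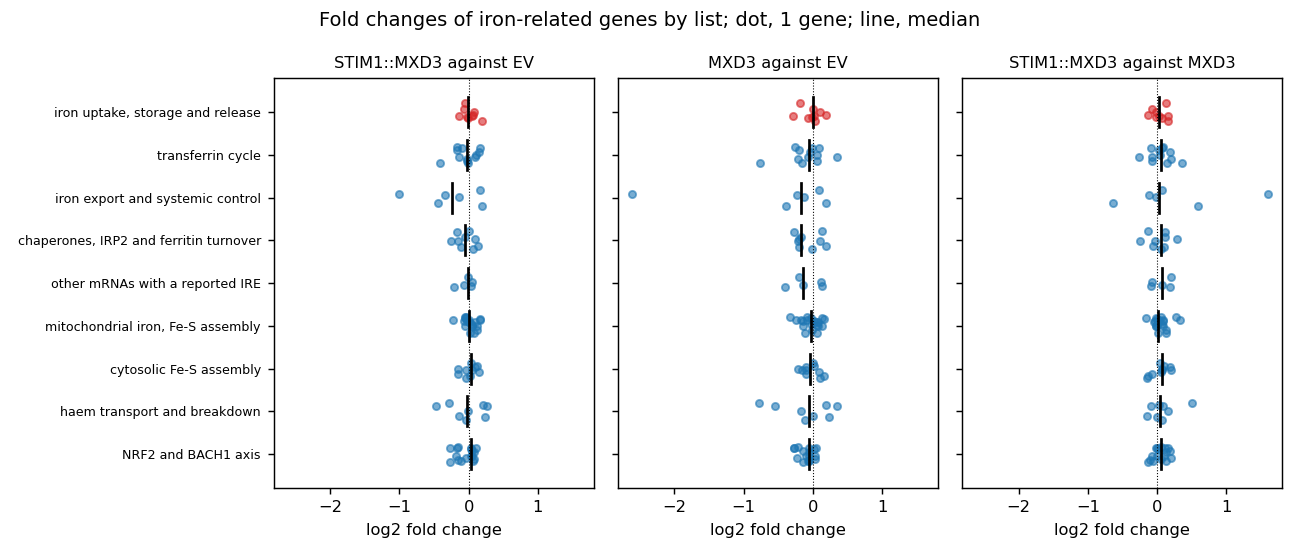
Strips of log2 fold change, 1 dot a gene and a vertical line at the median, for the members (red) and the 8 other iron lists (blue) in the 3 comparisons. The members' medians are -0.01, -0.00 and 0.03; the dot far to the left with MXD3 against EV is LCN2, at -2.61 and under 0.5 CPM.

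The genes whose log2 CPM followed a member most closely over the 6 libraries are given as a description, since these libraries share plasmid and replicate number. TFRC was nearest to ADH5 (r = 0.99) and SUMO3 (r = 0.99), and 36 of 10249 genes with a mean of at least 5 CPM had r over 0.95. FTH1 was nearest to EPS15 and SPPL3, with 638 genes over 0.95, and FTL to SLC27A2 and TMEM135, with 882. At this cut, more genes thus shared the pattern of either ferritin gene than that of TFRC, and in each case they were a minority of the 10249.

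Promoters from 250 bases before to 50 bases after the start were taken from RefSeq (GRCh38.p14) for 8 of the 10 members, with 13 promoters in all, and FTH1 and HMOX1 had no entry. The E-box CACGTG, which MYC, MAX and MXD proteins bind, was in none of them on either strand, where 7.26% of 35116 promoters held it. TGACNNNGC, which NRF2 and BACH1 bind with small MAF proteins, was in 1 of the 13, a promoter of NCOA4, where 13.4% of all promoters held it.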

How the data were processed

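Poly A RNA from 6 K562 libraries was sequenced as read pairs. The authors deposited raw counts per NCBI Gene identifier, 1 table per library, without normalisation. The build was hg19, and the submitters' processing notes name HISAT2 2.2.1 and featureCounts 2.0.1, while the study's methods name the DRAGEN RNA Pipeline. Which annotation was used, and whether strand was, is not given in the sources used here. Of counts from 1 to 39, 59.8% to 67.3% were even, so some pairs may be counted by both ends, and counts were also halved.

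Groups and replicate numbers came from the labels. Genes were kept with filterByExpr (15431), scaled with TMM and tested with edgeR 4.0.16 (quasi-likelihood, two-sided, 1 fit over 6 libraries, no covariate), with Benjamini-Hochberg adjustment over all genes and a threshold of 0.05. Log2 CPM values carry a prior count of 2, and SE is the log2 fold change over the root of F. The test was checked on simulated data. Their spread was set to the same value for every gene and not taken from the real libraries. The check thus does not show what the test recovers at the real spread. For the fit without the block the simulated data held no difference between replicate numbers, so that case was not checked. DESeq2 1.42.0, RLE scaling, other filters, the replicate number as a block, the 4 libraries of a comparison alone and each library left out were alternatives. In the main fit p-values measure the spread between 2 libraries a group, pooled over the 3 groups. With the block they measure the spread left after the replicate number. A count of 0 allows 3 counts, for counting error only. Identifiers were matched to symbols for 23696 of 25702, and the unmatched held 0.225% to 0.276% of counts. Levels per kilobase used GENCODE canonical transcripts on GRCh37, and elements were searched there.

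Members and lists were chosen with earlier results of these data known. All members were named, then of each other list the gene with the smallest p in each comparison and any called (1 such gene is not reported here), and the 2 nearest genes by Pearson r for TFRC, FTH1 and FTL. HMOX1, for which the rule also asked this, was not tested.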

Additional observations from a re-analysis of the deposited data

How the results depend on the processing

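No member was called in a plasmid comparison under the 14 alternatives tried for each, but DESeq2 with the replicate block gave 5 of the 9 members (SLC11A2, SLC40A1, STEAP3, IREB2 and ACO1) no adjusted p in STIM1::MXD3 against MXD3, so those could not be called there. Counts of all genes called, from 1 for STIM1::MXD3 and 1 for MXD3, both against EV, and 0 for the fusion against MXD3, became 2 for the first and 1 for the last without the low-count filter, 3, 3 and 1 with DESeq2, 3, 45 and 1 with the replicate block in edgeR, and 29, 243 and 11 with the replicate block in DESeq2, which tests fewer genes after its own filter. Leaving out 1 library gave 1 to 2 genes with MXD3 against EV. Other listed iron genes called rose to 2 of 87 with MXD3 against EV under the replicate block in DESeq2. There 2.42% of the 10046 genes given an adjusted p were called, and some of the 87 had none.

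Whether the replicate numbers pair the libraries was checked by the correlation of deviations from group means, r = 0.27, 0.36 and 0.45 over 15431 genes. The labels name no shared batch and there are only 2 numbers, so the block stayed an alternative. It called no member, with unadjusted p of 0.00813 for NCOA4 and 0.0345 for FTL with MXD3 against EV (edgeR, adjusted p = 0.187 and 0.320).

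Directions of the uncalled plasmid differences were not stable. Of 39 reversals, 37 in plasmid comparisons and 2 of IREB2 between replicate numbers, 10 came without MXD3 replicate 2, 9 without EV replicate 1, 8 without STIM1::MXD3 replicate 1, 5 without STIM1::MXD3 replicate 2, 3 without MXD3 replicate 1, 2 without EV replicate 2, and SLC11A2 with MXD3 against EV turned to 0.0019 without a filter and to 0.00023 with a mean of at least 5 CPM. The cause was not tested. Leaving out 1 library gave these ranges of log2 fold change. With STIM1::MXD3 against EV they were -0.11 to 0.43 for TFRC, -0.32 to 0.26 for FTH1, -0.38 to 0.21 for FTL, -0.59 to 0.21 for NCOA4, -0.20 to 0.13 for SLC40A1, -0.21 to 0.25 for ACO1 and -0.055 to 0.18 for STEAP3. With MXD3 against EV they were -0.32 to 0.19 for FTH1, -0.39 to 0.026 for FTL, -0.51 to -0.038 for NCOA4, 0.076 to 0.31 for STEAP3, 0.027 to 0.18 for IREB2, -0.048 to 0.046 for SLC11A2, -0.073 to 0.060 for SLC40A1 and -0.086 to 0.11 for ACO1. With STIM1::MXD3 against MXD3 they were -0.15 to 0.39 for TFRC, -0.25 to 0.32 for FTH1, -0.21 to 0.39 for FTL, -0.31 to 0.49 for NCOA4, -0.19 to 0.13 for SLC40A1, -0.23 to 0.23 for ACO1 and -0.097 to 0.057 for IREB2. The members' median ranged from -0.20 to 0.21, from -0.073 to 0.060 and from -0.19 to 0.23 in that order. Between replicate numbers IREB2 ranged from -0.0042 to 0.073, and members called ranged from 3 to 5. Where a group was left with 1 library, that library was assumed to vary like the others.

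The lowest count of FTH1, FTL and NCOA4 in a library was 26840. With 2 libraries a group and no block, the spread between libraries includes the replicate number. What limited the precision of these genes was not tested. With MXD3 against EV their SEs were 0.26, 0.25 and 0.30 without the block and 0.07, 0.08 and 0.10 with it (edgeR).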
